A study of Mus musculus with 12 samples.

Results

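The receptors for interleukin 3 and granulocyte-macrophage colony-stimulating factor (GM-CSF), the kinase and transcription factors below them and 3 of their target genes were followed in mouse bone marrow with and without the transcription factor E4bp4. The 10 genes were Il3ra, Csf2ra, Csf2rb, Csf2rb2, Jak2, Stat5a, Stat5b, Cish, Socs2 and Pim1. They were taken by symbol from the 19937 genes that had a transcript cluster (a probe set summarising 1 gene) annotated to that gene alone, and a gene with several such clusters was represented by the one with the highest mean over the 12 arrays. Each of the 10 reached the 20th percentile of the array on 12 of 12 arrays, so all 10 were among the 17807 genes tested.

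The study hybridised RNA from single mice to whole-transcript arrays (Affymetrix Mouse Gene 1.0 ST), with 6 mice lacking E4bp4 (E4bp4-/-) and 6 mice carrying both alleles (E4bp4+/+). In both genotypes the cells were marrow of the hind legs, from which cells with Ter119, GR1, CD11b, B220, CD2 or NK1.1 on their surface had been removed, which leaves mainly immature cells. The labels give no age, sex or strain, and they do not say which stretch of the gene was deleted or whether the deletion was limited to a cell type. Values are log2 levels after robust multi-array averaging (RMA), in which a difference of 1 is a doubling. The number of arrays limits their precision.

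Interleukin 3 and GM-CSF act on early myeloid cells, mast cells and basophils, and GM-CSF also on granulocytes and macrophages. Each cytokine binds its own alpha chain, and the complex then recruits a beta chain that is shared by both and by the interleukin 5 receptor; mice carry an additional beta chain, encoded by Csf2rb2, that serves interleukin 3 alone. The beta chain carries JAK2, which phosphorylates STAT5A and STAT5B, and these then bind DNA and switch on genes such as Cish and Socs2, whose products dampen the signal, and Pim1, whose product promotes survival. E4bp4 is the product of Nfil3, a name short for nuclear factor, interleukin 3 regulated.

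The targeted gene was read first. Nfil3 ranged from 6.34 through a median of 6.38 to 6.92 in E4bp4-/- mice, and from 6.94 through a median of 7.11 to 7.66 in E4bp4+/+ mice. The groups did not overlap, and the difference was -0.68 (SE 0.13; limma, adjusted p = 0.14; exact permutation, two-sided, p = 0.00216, the smallest that 6 against 6 arrays allow). E4bp4-/- replicate 1 stood apart from the other 11 arrays: Xist was at 6.08 there, where the other arrays held 12.1 to 12.65, and Eif2s3y at 7.37, where they held 3.93 to 4.13. Xist is transcribed from the inactive X chromosome of females and Eif2s3y lies on the Y chromosome. The levels on E4bp4-/- replicate 1 are thus those of a male, and those on the other 11 arrays are those of females. Sex cannot be told apart from the other traits of that array. The same array also held the highest levels of neutrophil, eosinophil, basophil and mast cell, and monocyte and macrophage markers among the knockout arrays, so values without that array are given beside the results that it moved most.

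None of the 10 genes passed an adjusted p of 0.05 in the comparison of genotypes. Of the 10, 6 had a higher mean in E4bp4-/- marrow and 4 a lower one, with a median difference of 0.02 (-0.003 without E4bp4-/- replicate 1), and over all 17807 genes the median difference was also 0.02 with 58.8% higher. The 4 receptor chains were the genes with the higher means of 0.16 or more, and Cish, a feedback inhibitor, had the lowest difference, at -0.34. By limma with Benjamini-Hochberg adjustment over all transcript clusters, 0 of the 10 were called, against 0.0% of all genes tested. At an unadjusted p of 0.05, limma gave 1 of the 10 (Cish, lower), where the background over all genes was 15.2% in either direction and 5.72% lower, and the exact permutation test also gave 1 of the 10, against 16.5% of all genes. Groups that did not overlap were found for 0 of the 10 genes, against 1.51% of all genes. Among all genes past the unadjusted threshold 62.4% were higher in the knockout, a share that was 51.6% after quantile normalisation and 21.8% when each array was centred on its median.

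**Figure D1:**
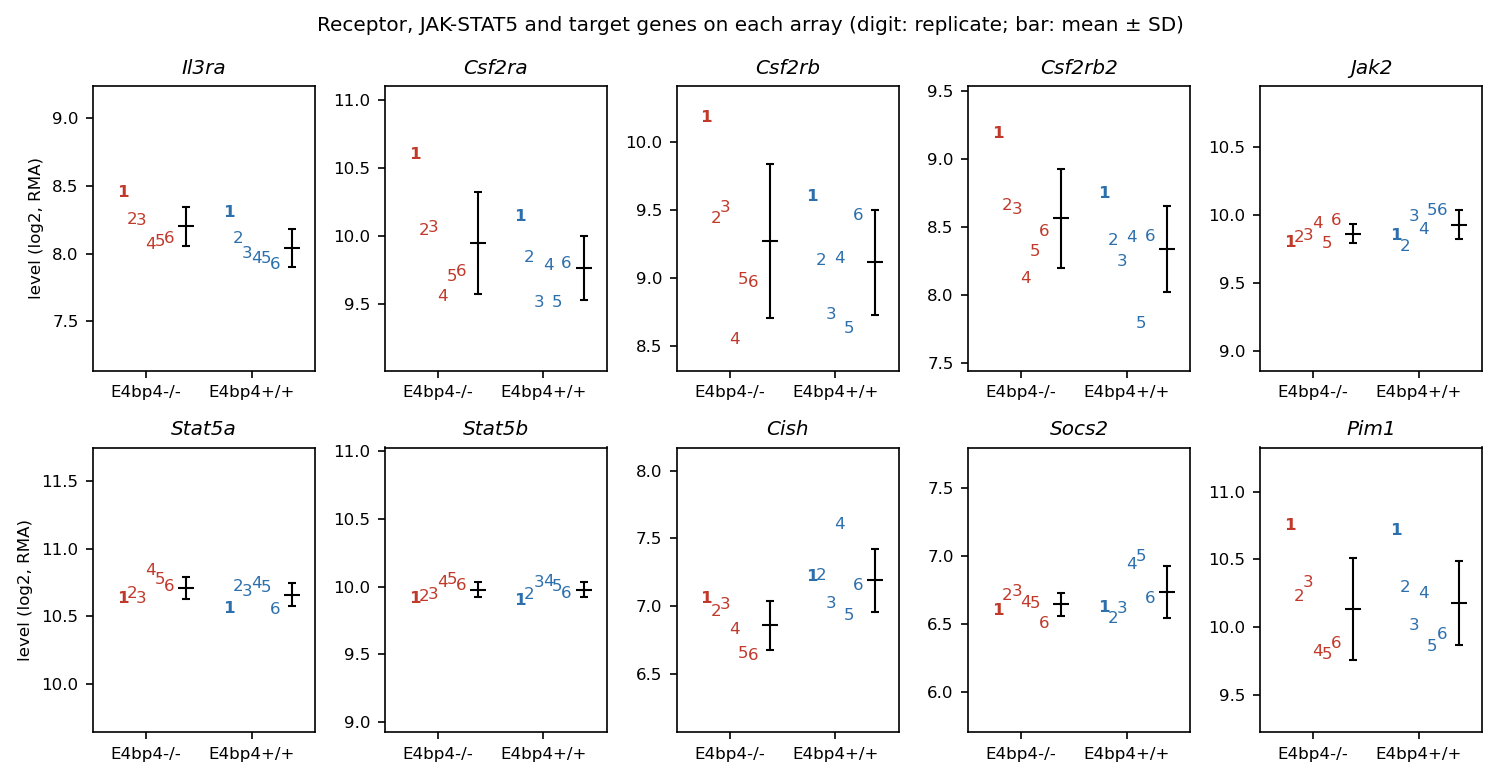
Level (log2, RMA) of each of the 10 genes on every array, with E4bp4-/- mice to the left in red and E4bp4+/+ mice to the right in blue; digits are replicate numbers and bars are the mean ± SD of 6 arrays. All panels span the same number of log2 units, so the wide scatter of Csf2rb (8.55 to 10.18 in E4bp4-/- mice) can be set beside the narrow one of Stat5b (9.91 to 10.05).

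The alpha chains bind the cytokines. Il3ra, the alpha chain of the interleukin 3 receptor, ranged from 8.07 through a median of 8.18 to 8.45 in E4bp4-/- mice, and from 7.92 through 7.98 to 8.3 in E4bp4+/+ mice. All 6 knockout arrays lay above the wild-type median, but the groups overlapped because wild-type replicates 1 and 2, at 8.3 and 8.11, reached into the knockout range. The difference was 0.16 (SE 0.0793, 95% interval -0.01 to 0.33; limma, unadjusted p = 0.067, adjusted p = 0.369; exact permutation p = 0.0801), which did not pass the test. Leaving out E4bp4-/- replicate 4 or E4bp4+/+ replicate 1 brought Il3ra past the unadjusted threshold, and no array left out brought it past the adjusted one.

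Csf2ra, the alpha chain of the GM-CSF receptor, ranged from 9.55 through a median of 9.89 to 10.6 in E4bp4-/- mice, and from 9.51 through 9.79 to 10.14 in E4bp4+/+ mice. The knockout arrays fell on both sides of the wild-type median, with 3 above it and 3 below, and replicate 1 was the highest of each genotype. The difference was 0.19 (SE 0.16, 95% interval -0.17 to 0.54; limma, adjusted p = 0.616). Without E4bp4-/- replicate 1 it was 0.06.

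The beta chains carry the signal into the cell. Csf2rb, the beta chain shared by the receptors for interleukin 3, interleukin 5 and GM-CSF, ranged from 8.55 through a median of 9.22 to 10.18 in E4bp4-/- mice, and from 8.63 through 9.14 to 9.6 in E4bp4+/+ mice. The knockout range enclosed the wild-type range at both ends. The difference was 0.16 (SE 0.25, 95% interval -0.39 to 0.71; limma, adjusted p = 0.796), and without E4bp4-/- replicate 1 it was -0.02.

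Csf2rb2, the beta chain that in mice serves interleukin 3 alone, ranged from 8.12 through a median of 8.55 to 9.19 in E4bp4-/- mice, and from 7.79 through 8.41 to 8.75 in E4bp4+/+ mice. It had the largest mean difference of the 4 chains, 0.22 (SE 0.18, 95% interval -0.17 to 0.61; limma, adjusted p = 0.578), and 4 of 6 knockout arrays lay above the wild-type median. Without E4bp4-/- replicate 1 the difference was 0.1. Csf2rb and Csf2rb2 are close relatives that lie next to each other on chromosome 15, and probes of one may bind transcripts of the other, so separate values for them are uncertain.

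The kinase and transcription factors had smaller differences. Jak2, the kinase bound to the beta chain, ranged from 9.79 through a median of 9.84 to 9.96 in E4bp4-/- mice, and from 9.77 through 9.94 to 10.03 in E4bp4+/+ mice. Its difference of -0.06 (SE 0.0547, 95% interval -0.18 to 0.05; limma, adjusted p = 0.597) did not pass the test, and the ranges of the genotypes overlapped over most of their length.

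Stat5a ranged from 10.63 through a median of 10.69 to 10.84 in E4bp4-/- mice, and from 10.55 through 10.7 to 10.74 in E4bp4+/+ mice, a difference of 0.05 (SE 0.0507, 95% interval -0.06 to 0.16; limma, adjusted p = 0.686). Stat5b, its neighbour on chromosome 11 and a close relative, ranged from 9.91 through 9.98 to 10.05 in E4bp4-/- mice, and from 9.9 through 9.98 to 10.04 in E4bp4+/+ mice. The Stat5b groups covered nearly the same range, with a 95% interval for the difference of -0.08 to 0.09, the narrowest of the 10 genes. The sign of the Stat5b difference turned under median centring (-0.04) and has no meaning at this size.

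Cish encodes an inhibitor that competes with STAT5 for the activated receptor, and it is itself a STAT5 target. It ranged from 6.64 through a median of 6.89 to 7.06 in E4bp4-/- mice, and from 6.93 through 7.19 to 7.6 in E4bp4+/+ mice. All 6 knockout arrays lay below the wild-type median. The groups overlapped because knockout replicates 1, 2 and 3, at 7.06, 6.96 and 7.01, lay above the lowest wild-type array, replicate 5, at 6.93. The difference was -0.34 (SE 0.11, 95% interval -0.58 to -0.09), or 1.26-fold lower in E4bp4-/- marrow, with an unadjusted limma p of 0.0104, an exact permutation p of 0.0173 and an adjusted limma p of 0.226. With any single array left out the difference stayed between -0.39 and -0.26, and its adjusted p ranged from 0.13 to 0.329 over all alternatives tried. In RNA from a mixed cell sample, fewer cells of a type and less RNA per cell cannot be told apart.

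Sequences around the transcription start were searched for the STAT5 motif, because Cish was the gene with the lowest p. Promoters of 8 of the 10 genes, 11 windows in all, were matched in RefSeq's table for GRCm38.p6; Csf2rb and Socs2 were not matched. The motif searched was TTCNNNGAA, which reads the same on both strands. It was present in 2 of the 11 windows, one of Cish and one of Csf2rb2, and in 8.3% of all 32851 promoter windows of the same length. The windows, at chr9:107296409-107296708 on the plus strand for Cish and chr15:78305672-78305971 on the minus strand for Csf2rb2, are shown 5′ to 3′ with each match in capitals:
Cish: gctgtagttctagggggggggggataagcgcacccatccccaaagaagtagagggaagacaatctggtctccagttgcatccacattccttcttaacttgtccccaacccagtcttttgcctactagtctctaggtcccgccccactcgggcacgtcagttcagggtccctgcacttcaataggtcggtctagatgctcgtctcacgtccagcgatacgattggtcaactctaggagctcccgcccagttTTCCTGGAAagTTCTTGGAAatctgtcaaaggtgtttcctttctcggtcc
Csf2rb2: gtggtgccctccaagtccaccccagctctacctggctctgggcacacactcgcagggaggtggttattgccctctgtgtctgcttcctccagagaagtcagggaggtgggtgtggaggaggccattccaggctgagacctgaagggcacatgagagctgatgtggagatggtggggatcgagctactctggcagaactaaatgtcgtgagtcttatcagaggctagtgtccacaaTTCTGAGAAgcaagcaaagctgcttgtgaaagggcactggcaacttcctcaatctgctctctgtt
The Cish window held 2 matches that did not overlap, the first beginning at the annotated start and the second 11 bases downstream of it, and the Csf2rb2 window held 1 match that begins 15 bases upstream of the start. The E4BP4 recognition sequence TTACGTAA and its variant TTATGTAA, searched on both strands, were in 0 of the 11 windows, against 0.119% and 0.938% of all windows. These matches describe letters in the windows and are not measurements of binding.

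Socs2 encodes another inhibitor of cytokine receptors, best known for restraining growth hormone signals. It ranged from 6.5 through a median of 6.65 to 6.74 in E4bp4-/- mice, and from 6.54 through 6.66 to 7.0 in E4bp4+/+ mice. The medians were nearly equal, and the mean difference of -0.09 (SE 0.0806, 95% interval -0.27 to 0.08; limma, adjusted p = 0.615) came with high values in wild-type replicates 4 and 5, at 6.94 and 7.0. Socs2 was the only one of the 10 genes with a second transcript cluster of its own, which averaged 6.61 ± 0.09 in E4bp4-/- mice and 6.72 ± 0.28 in E4bp4+/+ mice (SD, n = 6 each), with wild-type replicates 4 and 5 again highest, at 7.09 and 7.03.

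Pim1 encodes a serine/threonine kinase that promotes cell survival downstream of cytokine receptors. It ranged from 9.8 through a median of 10.06 to 10.75 in E4bp4-/- mice, and from 9.86 through 10.13 to 10.71 in E4bp4+/+ mice. Replicate 1 was highest in each genotype, and the difference was -0.04 (SE 0.18, 95% interval -0.43 to 0.35; limma, adjusted p = 0.937). It was -0.16 without E4bp4-/- replicate 1 and 0.07 without E4bp4+/+ replicate 1.

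Other genes of the pathway, in 6 lists by role, were read in the same fit. Of 50 genes listed, 44 had a transcript cluster of their own and 42 reached the filter. Of these 42, 28 had higher and 14 lower means in E4bp4-/- marrow, where 58.8% of all genes were higher. The median difference of the 42 genes was 0.05. None passed an adjusted p of 0.05 by limma, whereas 7 had an unadjusted p under 0.05 (3 higher and 4 lower) and 8 an exact permutation p under 0.05. The background shares are the 15.2% of all genes at the unadjusted limma threshold, 9.47% higher and 5.72% lower, and 16.5% of all genes by the exact permutation test. Without E4bp4-/- replicate 1, 22 of the 42 were higher and 20 lower, with a median of 0.01. The genes with an unadjusted limma p under 0.05 were then also 7, but not the same 7. Ccnd2 and Ccnd3 no longer passed, and other listed STAT5 target genes took their place. Listed genes without a transcript cluster of their own are not analysed here.

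Among the ligands, Il3 and Il5 stayed below the 20th percentile of the array on all 12 arrays. Csf2, which encodes GM-CSF, averaged 5.24 in both genotypes, with a 95% interval for the difference of -0.1 to 0.1. This level was little above the 20th percentile, which was 4.93 to 4.99 over the arrays. The 4 related receptors had differences between -0.09 and 0.09. Il5ra, the alpha chain of the interleukin 5 receptor, averaged 6.3 ± 0.55 in E4bp4-/- mice and 6.27 ± 0.6 in E4bp4+/+ mice (SD, n = 6 each), a scatter far wider than the difference of 0.04 (SE 0.3). For the receptor of erythropoietin, Epor, the difference was -0.07, for that of granulocyte colony-stimulating factor, Csf3r, 0.09, and for that of growth hormone, Ghr, -0.09. The differences of Il5ra, Epor and Csf3r had the opposite sign without E4bp4-/- replicate 1, at -0.10, 0.06 and -0.06.

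Of the other JAK and STAT genes, 4 were higher and 2 lower, and the lowest p belonged to Stat3, the factor used by interleukin 6 and G-CSF. Stat3 averaged 9.96 in E4bp4-/- mice and 9.77 in E4bp4+/+ mice, a difference of 0.19 (SE 0.11; limma, adjusted p = 0.407). E4bp4-/- replicate 1 was at 10.44, above the other knockout arrays, and without it the Stat3 difference was 0.10. The differences of Jak1, Tyk2 and Stat6 lay between -0.03 and 0.04, and between -0.01 and 0.02 without that array, where 2 genes of the list were higher and 4 lower.

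Among receptor adaptors and kinases, 5 were higher and 3 lower. Shc1, an adaptor that links cytokine receptors to Ras, was the only one of the 42 genes whose groups did not overlap, against 1.51% of all genes. It ranged from 10.64 to 10.73 in E4bp4-/- mice and from 10.79 to 11.03 in E4bp4+/+ mice. Every knockout array was below every wild-type array, by a mean difference of -0.16 (SE 0.045; limma, adjusted p = 0.195; exact permutation p = 0.00216). Grb2, a partner of Shc1, averaged 8.78 in E4bp4-/- mice and 8.66 in E4bp4+/+ mice, and its adjusted limma p was 0.337. Gab2, a docking protein that recruits lipid kinases, averaged 8.99 in E4bp4-/- mice and 8.74 in E4bp4+/+ mice, and its adjusted limma p was 0.375. The Gab2 difference was 0.25, and 0.17 without E4bp4-/- replicate 1. Pik3cd, a catalytic subunit of such a kinase, differed by 0.13 (SE 0.15), or by 0.01 without E4bp4-/- replicate 1.

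Of 10 inhibitors, 8 were higher and 2 lower. Cbl, a ubiquitin ligase that removes activated receptors, ranged from 9.66 to 10.15 in E4bp4-/- mice and from 9.49 to 9.69 in E4bp4+/+ mice. The groups overlapped through 1 knockout array, replicate 6, which lay below wild-type replicate 6, and the difference was 0.24 (SE 0.0787; limma, adjusted p = 0.223; exact permutation p = 0.00433). Without E4bp4-/- replicate 1 the Cbl difference was 0.18. Ptpn2, a phosphatase that acts on JAK and STAT proteins, averaged 9.24 in E4bp4-/- mice and 9.41 in E4bp4+/+ mice (limma, unadjusted p = 0.0313, adjusted p = 0.296). Ptpn2 also had another transcript cluster of its own, whose values are not given here. Cblb, a relative of Cbl, differed by 0.08, and Ptpn6, the phosphatase SHP-1, by 0.10, or by 0.04 without E4bp4-/- replicate 1. Over the 10 inhibitors the median difference was 0.08, and 0.03 without that array, where 7 were higher and 3 lower. With each array centred on its median it was 0.04.

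Of 13 other STAT5 target genes, 9 were higher and 4 lower, with a median difference of 0.07. The same genes were 6 higher and 7 lower without E4bp4-/- replicate 1, with a median of -0.02. Il2ra, which encodes CD25, a subunit of the receptor for interleukin 2, had the largest difference of the pathway genes. It ranged from 5.15 to 5.98 in E4bp4-/- mice and from 5.68 to 6.57 in E4bp4+/+ mice. The lowest of these levels lay little above the 20th percentile of the arrays, 4.93 to 4.99. The only overlap was knockout replicate 2, at 5.98, above wild-type replicate 2, at 5.68, and the difference was -0.73 (SE 0.16; limma, unadjusted p = 0.000627, adjusted p = 0.148; exact permutation p = 0.00433). Pim2, a kinase related to Pim1, averaged 7.77 ± 0.14 in E4bp4-/- mice and 7.58 ± 0.08 in E4bp4+/+ mice (SD, n = 6 each). The Pim2 difference was 0.20 (SE 0.0648; limma, adjusted p = 0.226), and 0.14 without E4bp4-/- replicate 1. The D-type cyclins differed in sign: Ccnd2 averaged 10.87 in E4bp4-/- mice and 10.7 in E4bp4+/+ mice, and Ccnd3 averaged 11.67 in E4bp4-/- mice and 11.81 in E4bp4+/+ mice, with adjusted limma p of 0.318 and 0.296. Their unadjusted limma p were 0.0401 and 0.0309, and 0.0905 and 0.0694 without E4bp4-/- replicate 1.

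**Figure D2:**
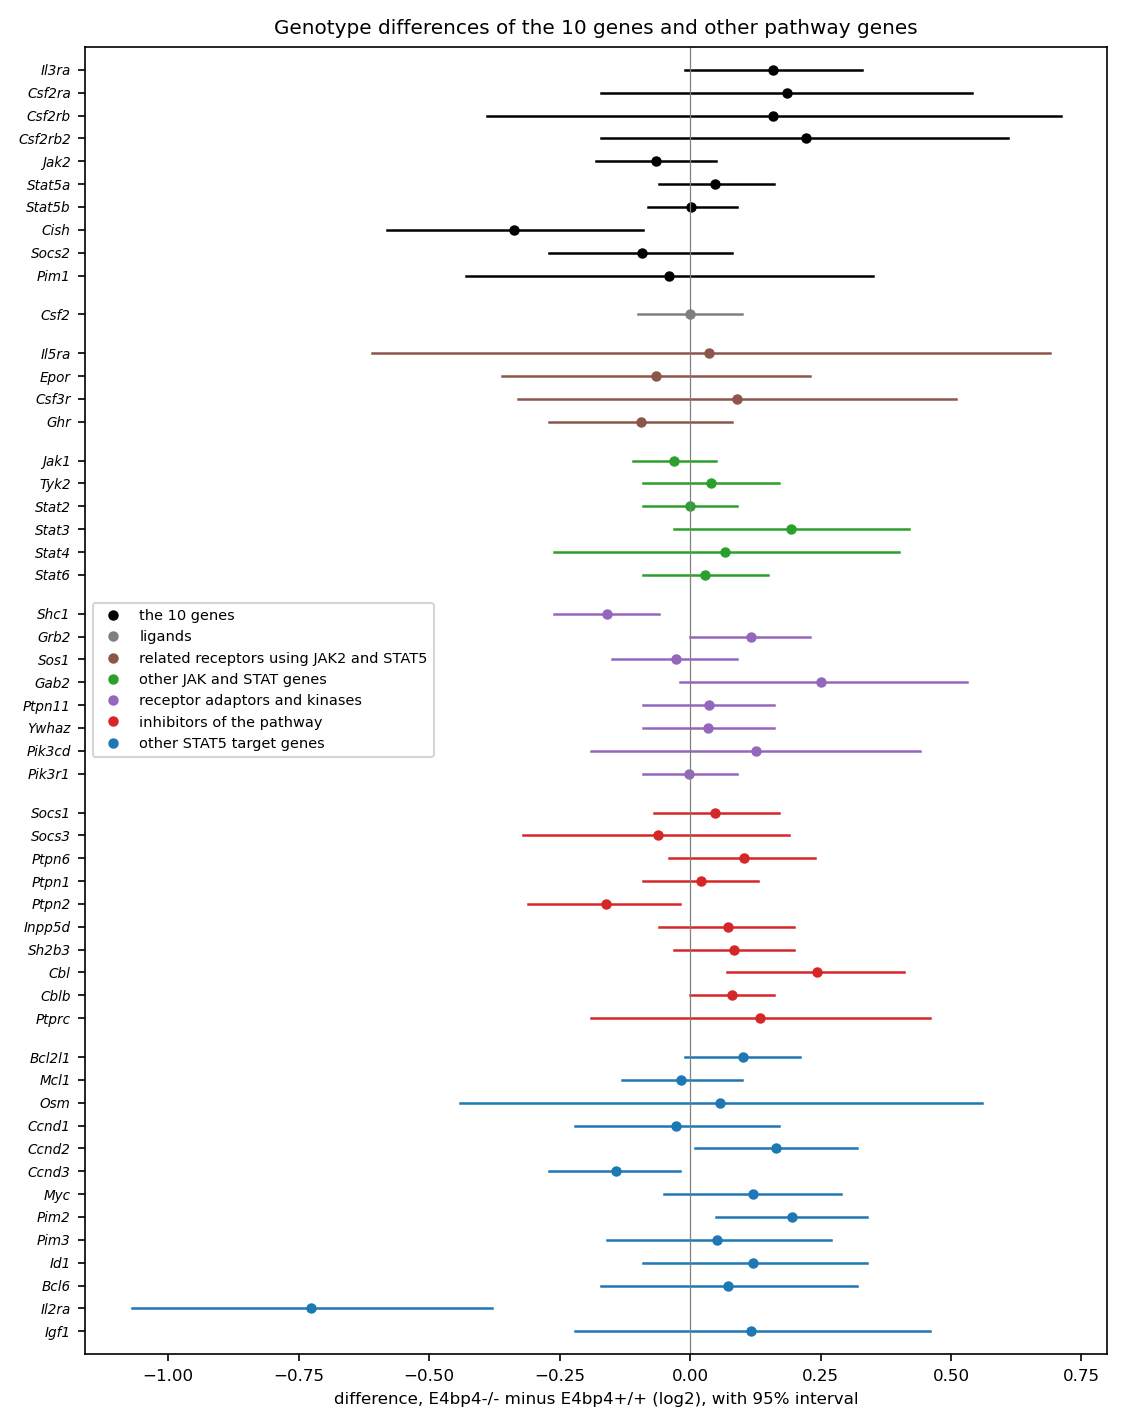
Difference between genotypes (E4bp4-/- minus E4bp4+/+, log2) of the 10 genes and the 42 other pathway genes, grouped by role; points are limma estimates and lines their 95% intervals, unadjusted. The intervals of Cish (-0.58 to -0.09) and Il2ra lie wholly below 0, those of the 4 receptor chains include 0, and no gene passed the adjusted test.

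The 10 genes differed widely in how much they varied among mice of one genotype. The standard deviation within genotypes was 0.483 for Csf2rb, 0.342 for Csf2rb2, 0.313 for Csf2ra and 0.344 for Pim1, which placed these 4 genes at percentiles 96.7 to 99.1 of the tested genes, whose median was 0.0993. Cish followed at 0.209, Socs2 at 0.147 and Il3ra at 0.144. Stat5b varied least, at 0.0546, a percentile of 6.53, and Stat5a and Jak2 were below the median gene too, at 0.0831 and 0.0921.

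The 4 receptor chains and Pim1 varied together. With each genotype's mean removed, the 4 receptor chains correlated with one another at Pearson's r of 0.77 to 0.97 and Spearman's rho of 0.6 to 0.93 over the 12 mice (permutation within genotypes, adjusted over the 45 pairs, p of 0.00075 to 0.0154 for r and 0.00225 to 0.0974 for rho). By rho, Il3ra with Csf2rb (adjusted permutation p = 0.0974) and Il3ra with Csf2rb2 (adjusted permutation p = 0.0609) did not pass. Leaving out the 2 arrays farthest from the median gave r of 0.49 to 0.94, and leaving out E4bp4-/- replicate 1 gave 0.63 to 0.95. Pim1 followed the chains at r of 0.86 to 0.95 (adjusted permutation p of 0.0018 to 0.00688; rho 0.78 to 0.87; 0.76 to 0.92 without the 2 farthest arrays). Within genotypes, where no test was run, r among chains was 0.97 to 0.99 in E4bp4-/- mice and 0.5 to 0.92 in E4bp4+/+ mice, the lowest being Il3ra with Csf2rb in E4bp4+/+ mice. For Csf2rb and Csf2rb2, r was 0.94, and the part of cross-binding probes in it was not tested.

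Stat5b ran the other way from the chains, with r of -0.85 to -0.75 and rho of -0.84 to -0.71 (adjusted permutation p of 0.00484 to 0.0165 for r and 0.0209 to 0.0527 for rho; -0.85 to -0.71 without the 2 farthest arrays). Stat5a did so less evenly, at r of -0.8 to -0.58 with adjusted permutation p of 0.0115 to 0.11. The Cish correlations with the chains, 0.41 to 0.61, did not pass after adjustment (permutation p of 0.0693 to 0.284), and those of Socs2 were between -0.38 and -0.17. The Stat5b levels behind this relation spanned only 9.91 to 10.05 in E4bp4-/- mice and 9.9 to 10.04 in E4bp4+/+ mice.

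**Figure D3:**
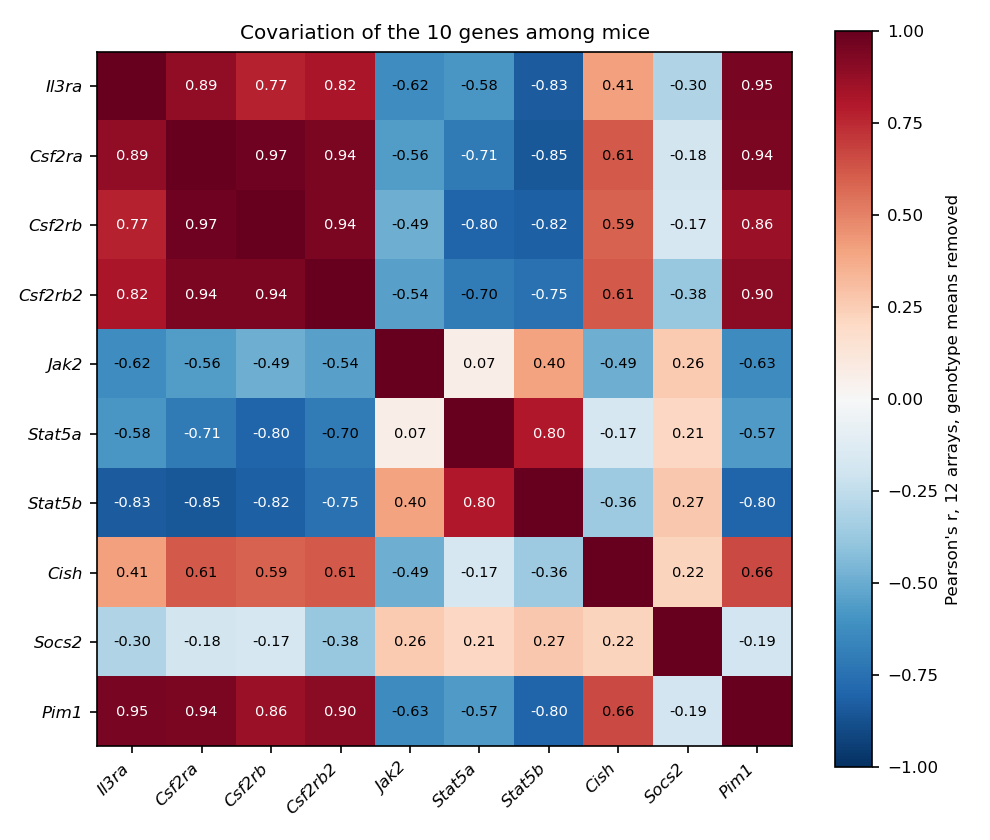
Pearson's r between each pair of the 10 genes over 12 mice (6 E4bp4-/- and 6 E4bp4+/+), after removal of each genotype's mean; red is positive and blue negative. The 4 receptor chains and Pim1 form a block of positive values (0.77 to 0.97), and Stat5b is negative with each of the 4 chains (-0.85 to -0.75).

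The chains also moved with markers of monocytes and macrophages. The mean level of 6 monocyte and macrophage markers (Csf1r, Ccr2, Mrc1, Adgre1, Cx3cr1 and F13a1; Ly6c2 is not analysed here) ranged from 7.52 to 8.95 in E4bp4-/- mice and from 7.4 to 8.17 in E4bp4+/+ mice, a difference that did not pass the exact permutation test (p = 0.502). In 60 relations computed between the 10 genes and 6 marker lists, the chains followed this list at r of 0.84 to 0.98 and rho of 0.69 to 0.94, with adjusted permutation p of 0.0012 to 0.00611 for r and 0.0018 to 0.0475 for rho. Without the 2 farthest arrays r was 0.71 to 0.98. Csf2ra lay closest, at r of 0.98, and Il3ra least close, at 0.84, with 0.99 in E4bp4-/- mice alone and 0.65 in E4bp4+/+ mice alone.

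Pim1 followed the same markers at r of 0.9 and rho of 0.83 (adjusted permutation p of 0.0036 and 0.0139), and Stat5b ran against them at r of -0.81 and rho of -0.76 (adjusted permutation p of 0.00611 and 0.0255). For Cish r was 0.62 and rho 0.6, with adjusted permutation p of 0.0403 and 0.0957. Socs2 showed little relation, at r of -0.16 and rho of -0.17 (adjusted permutation p of 0.567 and 0.623).

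The markers of other lineages overlap in these samples. The chains followed neutrophil markers at r of 0.8 to 0.92 and basophil and mast cell markers at 0.8 to 0.95, and they ran against megakaryocyte markers at -0.82 to -0.76. Against eosinophil markers r was 0.8 to 0.91 for Csf2ra, Csf2rb and Csf2rb2 but 0.51 for Il3ra (adjusted permutation p = 0.155). For Il3ra it was 0.04 in E4bp4+/+ mice alone, 0.86 in E4bp4-/- mice alone and 0.85 without the 2 farthest arrays. Against erythroid markers r was -0.7 to -0.4, and only Il3ra passed for r (adjusted permutation p = 0.0403), not for rho (0.22). None of the monocyte and macrophage markers measured was below the 20th percentile on all arrays. The part of these markers in the receptor differences was not tested. In 1 fit, added after the data were seen, the monocyte and macrophage mean was a covariate. The differences were then 0.10 for Il3ra, 0.05 for Csf2ra, -0.05 for Csf2rb and 0.08 for Csf2rb2. That mean was itself higher in E4bp4-/- mice, averaging 7.96 against 7.76 in E4bp4+/+ mice, and the chains followed it on the same arrays. Such a fit therefore cannot separate the part of the markers from that of genotype. In the same fit the Cish difference was -0.40 (limma, unadjusted p = 0.00141, adjusted p = 0.13) and that of Pim1 was -0.18. The part of the cell mixture in these differences was not tested either.

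**Figure D4:**
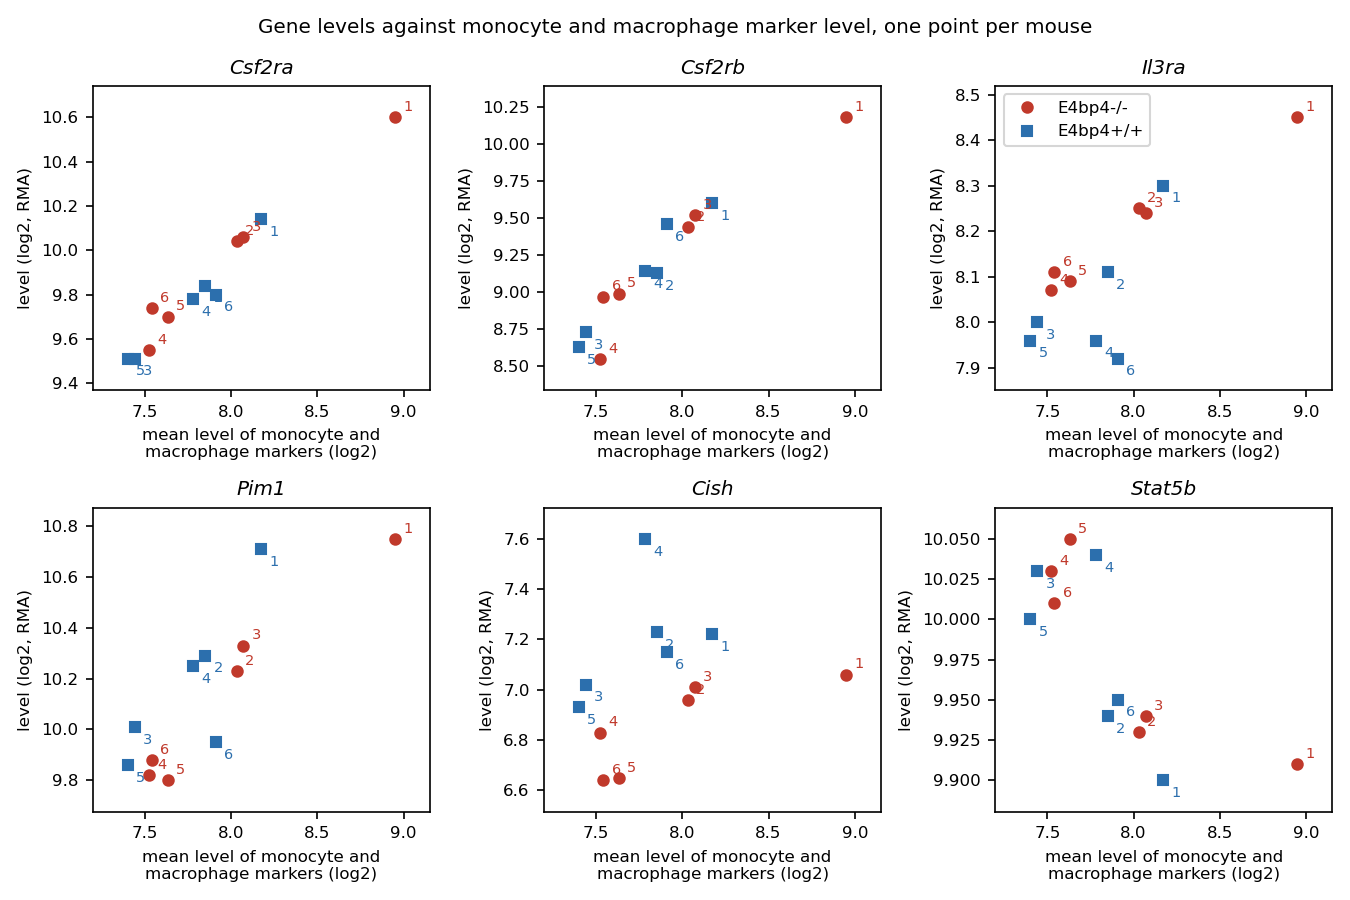
Level of 6 of the genes (vertical axes, log2) against the mean level of monocyte and macrophage markers (horizontal axes, log2), 1 point per mouse, with E4bp4-/- mice as red circles, E4bp4+/+ mice as blue squares and replicate numbers beside them. Csf2ra, Csf2rb and Pim1 climb with the markers (r of 0.9 to 0.98) and Stat5b declines (r of -0.81). Cish ranges from 6.64 to 7.06 in E4bp4-/- mice and from 6.93 to 7.6 in E4bp4+/+ mice. E4bp4-/- replicate 1, at a marker mean of 8.95, lies beyond every E4bp4+/+ mouse (highest 8.17). The part of the cell mixture in the Cish difference was not tested.

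Of the 10 cell type marker lists, 3 had means with an exact permutation p under 0.05 between genotypes, before any adjustment over the lists. The mean of 5 such markers (Kit, Cd34, Flt3, Gata2 and Myb) was 10.75 to 11.07 in E4bp4-/- mice and 10.64 to 10.82 in E4bp4+/+ mice (exact permutation p = 0.00649), and that of 6 megakaryocyte markers was 9.94 to 10.83 in E4bp4-/- mice and 9.81 to 10.4 in E4bp4+/+ mice (exact permutation p = 0.0411). The B cell precursor mean of 5 markers was 6.07 to 6.6 in E4bp4-/- mice and 6.0 to 6.17 in E4bp4+/+ mice (exact permutation p = 0.0216). Erythroid markers, at 11.32 to 11.85 in E4bp4-/- mice and 11.59 to 11.93 in E4bp4+/+ mice, gave an exact permutation p of 0.219. Without E4bp4-/- replicate 1 the exact permutation p was 0.013 for the progenitor, 0.00433 for the megakaryocyte and 0.039 for the B cell precursor mean. The part of these lists in the Cish difference was not tested.

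The genes whose 12 values were most like each chain, with genotype means removed, were taken as the 3 with the highest Pearson's r. Csf2ra was matched most closely by Tgfbi (r = 0.992), Ncf1, a subunit of the phagocyte oxidase (0.992), and Fcgr2b, an inhibitory Fc receptor (0.989). Csf2rb was matched by Klrb1f (0.99), Cebpe, a transcription factor of granulocyte maturation (0.989), and Ceacam1 (0.989). Csf2rb2 was matched by Pirb, an inhibitory receptor of myeloid and B cells (0.971), Alox8 (0.969) and Arhgap17 (0.969). Il3ra was matched by Fosl2, a transcription factor of the Fos family (0.965), Pip4p1 (0.964) and Ier2, an immediate-early gene (0.962). Without E4bp4-/- replicate 1 these 12 correlations were 0.94 to 0.99. The genes were picked as the highest among all tested genes, so they only describe these 12 mice. The part of the cell mixture in these correlations was not tested.

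The differences of the receptor chains shifted with single arrays. E4bp4-/- replicate 1 was the highest knockout array for 6 of the 10 genes (the 4 chains, Cish and Pim1), and E4bp4+/+ replicate 1 was the highest wild-type array for 5 (the 4 chains and Pim1). E4bp4-/- replicate 4 was the lowest knockout array for the 4 chains. With single arrays left out, the difference ranged from 0.11 to 0.21 for Il3ra, from 0.06 to 0.27 for Csf2ra, from -0.02 to 0.3 for Csf2rb and from 0.1 to 0.31 for Csf2rb2. For each chain the lowest of these values came without E4bp4-/- replicate 1.

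**Figure D5:**
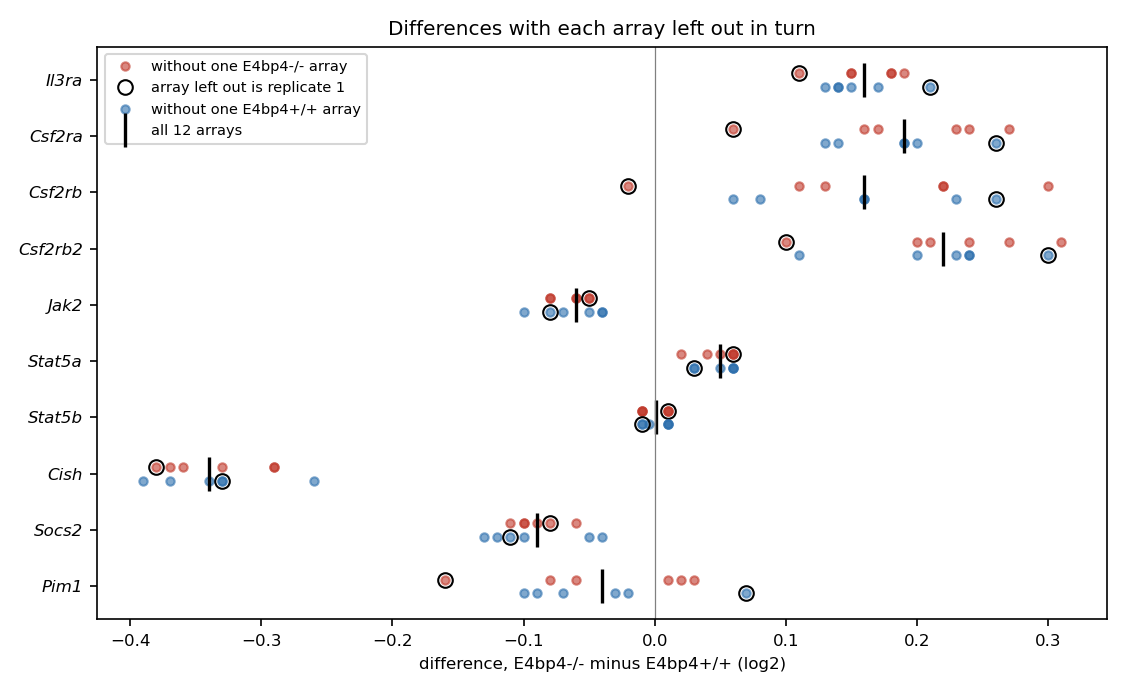
Difference between genotypes (E4bp4-/- minus E4bp4+/+, log2) of each of the 10 genes with all 12 arrays and with each single array left out, marked by the genotype of the array removed. Cish stays between -0.39 and -0.26, Csf2rb spans -0.02 to 0.3, and Pim1 lies on both sides of 0 (-0.16 to 0.07).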

How the data were processed

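Marrow RNA, after removal of lineage-positive cells, came from 6 E4bp4-/- and 6 E4bp4+/+ mice and was labelled and hybridised to Mouse Gene 1.0 ST arrays, starting from 100 ng, per the labels' protocols. The values are log2 intensities that the authors summarised per transcript cluster with RMA in GeneSpring GX 11, per the series' design text and the labels; no source used here names the genome build behind the array annotation. Of 34760 transcript clusters, 21640 had 1 gene symbol, 1321 several and 11799 none in the platform annotation. Array medians were 6.5 to 6.62, and arrays correlated at 0.986 to 0.9955.

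Clusters reaching the 20th percentile of an array on at least 1 array were kept (29541), and genotypes were compared with limma 3.58.1 (lmFit and eBayes, no covariate) in R 4.3.3, with Benjamini-Hochberg adjustment over all of them and a threshold of 0.05. For single genes an exact permutation test (two-sided, all 924 splits of the arrays) stands beside it. Marker and pairwise correlations used values minus the genotype mean and 100000 permutations within genotypes (scipy 1.17.1), adjusted over each family. Intervals are 95% limma intervals. The fit was tested on simulated data with independent noise in each transcript cluster. It recovered 81% of changes of 0.5 and 88% of changes of 1 (log2), with 8 false calls. Variation shared among genes, as on these arrays, was not simulated. Genes named are the 10 genes, Nfil3, the up to 4 genes of lowest p in each pathway list and the 3 genes most like each receptor chain. The 10 genes, the lists and the tests were chosen with earlier results of these data known. Alternatives changed the filter, scaling, variance model, array weights, replicate block, transcript cluster and arrays included; leaving out both arrays numbered 1 and the marker covariate were added after seeing the data. The replicates are separate mice. Promoter windows are RefSeq's for GRCm38.p6.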

Additional observations from a re-analysis of the deposited data

Results flagged for a closer look

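Of 88 sets of 6 arrays examined (11 genes of the report's main group with Nfil3, the other named pathway genes and the marker means, in each genotype), 9 held an array far from the other 5 by Dixon's criterion, which chance alone gives in about 1 set in 20, or 4.4 here. Of these, 7 were E4bp4-/- replicate 1. On that array Epor was 10.03 (10.61 to 10.94 on the other 5), Jak1 was 11.47 (11.6 to 11.66), Stat6 was 10.05 (9.77 to 9.85), Ptpn6 was 10.5 (10.1 to 10.23) and Pim2 was 8.04 (7.67 to 7.79). Its mean of the depletion antigens and their lineages was 7.0 (6.17 to 6.44), and its megakaryocyte marker mean was 9.94 (10.56 to 10.83). The other 2 were E4bp4+/+ replicate 1, with Nfil3 at 7.66 (6.94 to 7.18) and a progenitor marker mean of 10.82 (10.64 to 10.7). None of the 10 receptor, JAK-STAT5 and target genes met the criterion in either genotype. The sets come from the same 12 arrays and are not independent, so 9 beside 4.4 is not a test against chance.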

How the results depend on the processing

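Over 11 differences (the 10 genes and Nfil3) and all alternatives, 218 of 232 values kept their direction and side of the adjusted threshold, 14 changed sign and 0 crossed the threshold. With single arrays left out, the ranges that changed sign were -0.02 to 0.3 for Csf2rb, -0.01 to 0.01 for Stat5b and -0.16 to 0.07 for Pim1. Stat5b was also -0.04 with each array centred on its median and -0.00043 without both arrays numbered 1, and Csf2rb was -0.05 with the monocyte and macrophage marker covariate; the cause was not tested. Under both other scalings, no gene of the 10 but Stat5b changed sign, and the median difference of all genes was 0.02 as reported and -0.02 after median centring. The number of the 10 genes with an unadjusted p under 0.05 was 1 to 2 with single arrays left out, 2 with a replicate block and 2 without both arrays numbered 1, the additional gene being Il3ra each time.

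The labels do not say that the replicate numbers pair mice, and the values did not bear out a pairing for every number: correlations of same-numbered arrays' deviations from their genotype means were 0.462, 0.0348, 0.0681, -0.0327, 0.185 and 0.171, and 3 of the 6 numbers correlated best with their own. The numbers were therefore not used as pairs, though a tie behind some of them was not tested. With the replicate block the unadjusted limma p of Il3ra was 0.00235 (adjusted 0.176), the adjusted p of Cish was 0.202, and 10 pathway genes had an unadjusted p under 0.05 in place of 7, against 5 to 9 with single arrays left out. Over all genes, adjusted limma calls numbered 0 in the comparison as reported, 3 with array weights, 3 with the marker covariate, 2 without E4bp4-/- replicate 1 and 1 without E4bp4+/+ replicate 2. With 6 mice a genotype, the 95% intervals printed set what can be read from the receptor chains.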
